A study of Drosophila melanogaster with 9 samples.

Results

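The miRNA miR-281 was followed through small RNA libraries of adult Drosophila melanogaster midguts. Its members were taken by name, as every entry of the deposited table that starts with miR-281. There were 3 of 467, listed as dme-miR-281-1-5p, dme-miR-281-2-5p and dme-miR-281-3p and written without the species prefix from here on, and the 5p entries were also added up in each library. All 3 passed the filter on low values. Of the 145 miRNAs listed above 0 in any library, 73 passed it. Earlier results of these data, lower 5p levels in Pe than in mock midguts, had drawn attention to them. Differences from mock are therefore described here for miR-281 with no p-value, and they support nothing.

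The series examined how regeneration of the midgut starts and ends. All flies were wild type, of the Oregon-R strain. The Pe day 3 group (n = 3 libraries) received the treatment that the labels write as Pe without spelling it out, and was 7 to 8 days old. The Pe day 0 group (n = 3) received the same treatment and was 4 to 5 days old. The mock group (n = 3) was given sucrose, sampled at day 0 and was also 4 to 5 days old. Nothing in the labels says that replicate libraries stem from different batches of flies, so a p-value here measures a spread that may be technical. The sources used here give neither the sex of the flies nor the number of guts per library. Age and sampling day cannot be told apart in any comparison with Pe day 3.

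miRNAs are short RNAs cut from hairpin precursors by Drosha and Dicer. One arm of the hairpin, 5p or 3p, is usually kept in an Argonaute protein, where it guides the repression of messenger RNAs. miR-281 is conserved among insects and is known as an abundant gut miRNA in mosquitoes, where it has been studied in dengue virus infection of Aedes albopictus. In the silkworm it has been tied to the ecdysone receptor. In the fly it comes from a pair of neighbouring hairpins inside Oda, the gene of ornithine decarboxylase antizyme, a protein that binds ornithine decarboxylase and so restrains polyamine synthesis.

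In the Ensembl annotation of build BDGP6.54, the mir-281-1 hairpin (FBgn0286006) lies on the minus strand at chr2R:12170373-12170462. The mir-281-2 hairpin (FBgn0286007) lies downstream of it at chr2R:12170153-12170244, with 128 nt between them. Their mature 5p products span 12170427 to 12170449 for mir-281-1 and 12170209 to 12170230 for mir-281-2. Both hairpins sit in intron 1 of Oda-RA and of Oda-RC, on the same strand. The third Oda transcript, Oda-RB, starts downstream of both, so the hairpins are intronic in 2 of 3 Oda transcripts. The same annotation also places both hairpins within the single exon of both transcripts of a non-coding RNA on the minus strand, asRNA:CR46194. That RNA overlaps SmD3, a spliceosomal Sm protein gene on the opposite strand in the same intron. The annotated 5p product is 23 nt long for mir-281-1 and 22 nt for mir-281-2, and the 3p products are 23 nt each. The deposited table holds separate 5p entries for the hairpins and a single 3p entry that names no hairpin. Small RNA libraries do not measure the Oda messenger RNA or asRNA:CR46194.

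**Figure D1:**
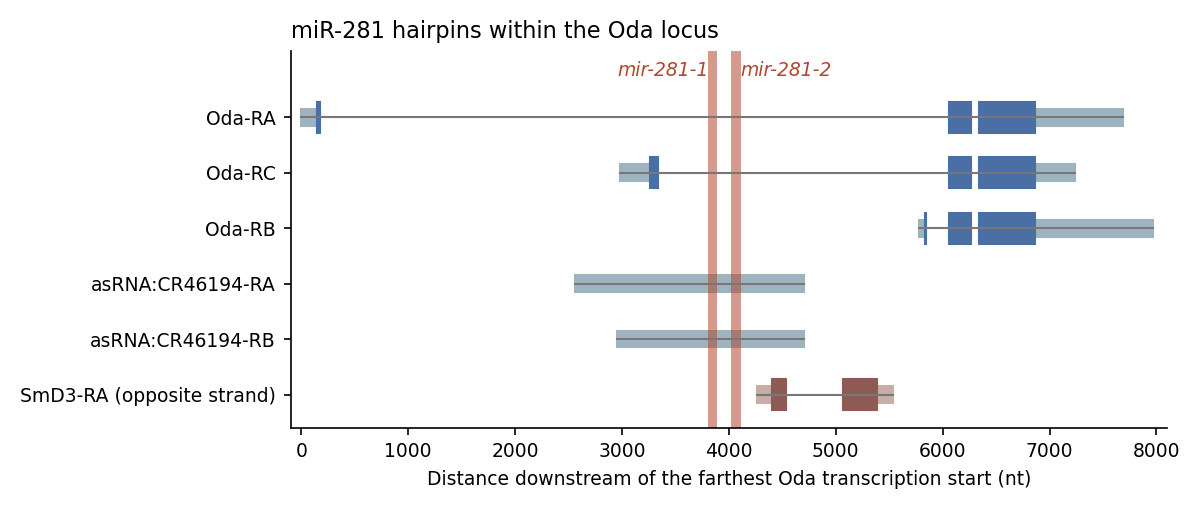
Transcripts around the miR-281 hairpins, drawn by distance in nt from the most upstream Oda start (x axis), with thick boxes for coding sequence, thin boxes for other exons and lines for introns. The hairpins (vertical bands) begin 3802 and 4020 nt downstream of that start, inside intron 1 of Oda-RA and Oda-RC and inside the exon of asRNA:CR46194.

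Each library held 224873 to 1238105 miRNA reads, and the depth ranges of the groups overlapped. Values below are reads per 1000000 miRNA reads (RPM) divided by trimmed mean of M values (TMM) factors, called scaled RPM. Marker lists of muscle and ovary miRNAs differed between libraries. For muscle (miR-1, miR-133), with 2 of 4 entries above 0, the sum was 267 to 382 RPM at Pe day 3, 64.2 to 140 RPM at Pe day 0 and 76.3 to 110 RPM in mock. The ovary list (miR-989), with 1 of 2 entries above 0, stood at 77.5 RPM in Pe day 0 replicate 3 and at 0 in the other 8 libraries. The neuron list (miR-124) and the testis list (hairpins of the miR-959 to miR-964 and miR-972 to miR-979 groups) were at 0 throughout. The early embryo list (miR-309, miR-286 and miR-3 to miR-6) summed to at most 23.1, 15.3 and 33.0 RPM in the Pe day 3, Pe day 0 and mock groups.

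miR-281-2-5p had the most reads of the 3 miR-281 entries. It stood at 604, 631 and 749 scaled RPM in the Pe day 3 libraries, at 813, 401 and 791 in the Pe day 0 libraries and at 1771, 1332 and 1009 in the mock libraries (replicates 1, 2 and 3). Every Pe library lay below every mock library, while the Pe day 3 range lay within the Pe day 0 range. The group means were 661 ± 76.7 scaled RPM at Pe day 3, 668 ± 231 at Pe day 0 and 1371 ± 382 in mock (SD, n = 3 each). Pe day 0 replicate 2 held the lowest level of the 9 libraries. As a share of all miRNA reads, miR-281-2-5p made up 0.0394% to 0.147% of a library. Ranked by RPM, it took places 22 to 26 at Pe day 3, 19 to 28 at Pe day 0 and 14 to 18 in mock.

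miR-281-1-5p, the entry named for the upstream hairpin, had fewer reads. It stood at 52.3, 43.5 and 67.0 scaled RPM in the Pe day 3 libraries, at 77.2, 37.7 and 82.3 in the Pe day 0 libraries and at 130, 97.7 and 114 in the mock libraries. Again every Pe library lay below every mock library, and the Pe groups overlapped each other. Means were 54.3 ± 11.9 scaled RPM at Pe day 3, 65.8 ± 24.4 at Pe day 0 and 114 ± 16.2 in mock (SD, n = 3 each). These levels rest on 11 to 109 reads per library.

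The product of the other arm, miR-281-3p, was the scarcest of the 3. It had 10, 8 and 8 reads in the Pe day 3 libraries, 18, 5 and 33 reads in the Pe day 0 libraries and 12, 14 and 18 reads in the mock libraries. These gave 12.5, 15.8 and 29.8 scaled RPM at Pe day 3, 25.7, 17.1 and 24.9 at Pe day 0 and 22.6, 35.1 and 37.9 in mock. All 3 groups overlapped. The means were 19.4 ± 9.19 scaled RPM at Pe day 3, 22.6 ± 4.75 at Pe day 0 and 31.9 ± 8.13 in mock (SD, n = 3 each).

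The sum of both 5p entries was 657, 674 and 816 scaled RPM in the Pe day 3 libraries, 890, 439 and 873 in the Pe day 0 libraries and 1901, 1430 and 1123 in the mock libraries. It averaged 716 ± 87.1 scaled RPM at Pe day 3, 734 ± 256 at Pe day 0 and 1485 ± 392 in mock (SD, n = 3 each). Every Pe library lay below every mock library, as for its parts. In whole midguts, fewer cells that make miR-281 and less miR-281 per cell cannot be told apart.

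**Figure D2:**
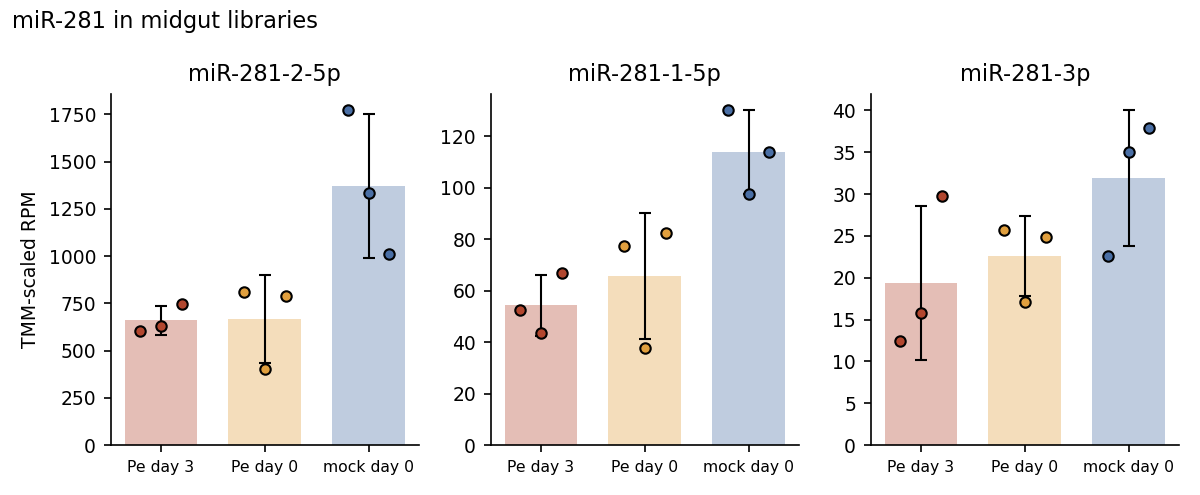
TMM-scaled RPM (linear y axes from 0, 1 panel per entry) of the 3 miR-281 entries in Pe day 3, Pe day 0 and mock day 0 midguts. Points are libraries in the order of their replicate numbers, bars are means and error bars are SDs over 3 libraries. The 5p entries lie lower in all 6 Pe libraries than in any mock library, and the 3p entry overlaps among the groups.

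The comparison of Pe day 3 with Pe day 0 asks whether levels differ between the sampling days after the same treatment. miR-281 was not chosen on this difference itself. It was chosen for lower 5p levels than mock in these same Pe libraries, so the comparison is not independent of that choice. Choosing entries low in both Pe groups favours a small difference here. No miR-281 entry passed the threshold of limma (0 of 3, and 0 of 3 with limma voom), an adjusted p under 0.05, which 2.74% of all 73 miRNAs passed. None had groups without overlap (0 of 3), where 24.7% of all 73 did. miR-281-2-5p had a log2 difference of 0.05 ± 0.27 (SE), with a 95% interval of -0.50 to 0.60 and a limma adjusted p of 0.882. miR-281-1-5p stood at -0.21 ± 0.33 (interval -0.87 to 0.46, limma adjusted p = 0.647). miR-281-3p stood at -0.24 ± 0.46 (interval -1.17 to 0.69, limma adjusted p = 0.687). The 5p sum, tested in place of its parts, had a difference of 0.03 ± 0.27 (interval -0.52 to 0.58, limma adjusted p = 0.934). The median of all 73 miRNAs was 0.01. These intervals leave room for changes of either sign. The sign for miR-281-2-5p turned without Pe day 0 replicate 2, to -0.28 (limma adjusted p = 0.430), and without Pe day 3 replicate 3, to -0.052 (limma adjusted p = 0.898). For miR-281-1-5p the lowest limma adjusted p over all alternatives was 0.278.

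The values against mock, through which the entries were chosen, were as follows. At Pe day 3 miR-281-2-5p was 2.02-fold lower than in mock (log2 difference -1.02 ± 0.27 SE) and miR-281-1-5p 2.04-fold lower (-1.03 ± 0.33). At Pe day 0 miR-281-2-5p was 2.09-fold lower than in mock (-1.06 ± 0.27) and miR-281-1-5p 1.76-fold lower (-0.82 ± 0.33). For the 5p sum the folds were 2.03 at Pe day 3 and 2.07 at Pe day 0. These comparisons share the mock libraries. miR-281-3p had log2 differences of -0.66 ± 0.46 at Pe day 3 and -0.42 ± 0.46 at Pe day 0, with overlapping libraries in each. These moved with single libraries, to -1.06 at Pe day 3 without Pe day 3 replicate 3 and -1.0 without mock replicate 1. At Pe day 0 the value was -0.73 without mock replicate 1, -0.65 without Pe day 0 replicate 3 and -0.26 without Pe day 0 replicate 2. Without Pe day 0 replicate 2, the Pe day 0 difference of miR-281-1-5p was -0.48 and that of miR-281-2-5p was -0.73.

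With TMM factors the median over the 73 miRNAs was 0.21 for Pe day 3 and 0.17 for Pe day 0. It was 0.05 and -0.02 with median-of-ratios factors, 0.0057 and 0.05 with totals without the 5 most abundant miRNAs, and 0.47 and 0.24 with RPM as deposited, for Pe day 3 and Pe day 0 in that order. Relative to the TMM median, miR-281-2-5p stood at -1.22 at Pe day 3 and -1.23 at Pe day 0, and miR-281-1-5p at -1.23 at Pe day 3 and -0.99 at Pe day 0. Ordered from the lowest difference up, miR-281-1-5p and miR-281-2-5p took places 1 and 2 of 73 at Pe day 3. They took places 3 and 2 at Pe day 0. Libraries lay wholly below mock for both 5p entries in each contrast, as they did for 9.59% of all miRNAs at Pe day 3 and for 11.0% at Pe day 0. That absence of overlap was the same with median-of-ratios factors, with RPM as deposited and with totals that left out the 5 most abundant miRNAs.

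The authors' deposited table gave log2 fold changes of -1.20 ± 0.31 (SE) for miR-281-2-5p and -1.26 ± 0.42 for miR-281-1-5p in the contrast that matched Pe day 3 over mock. In the contrast that matched Pe day 0 over mock, the authors' deposited table gave -1.22 ± 0.31 for miR-281-2-5p and -0.94 ± 0.41 for miR-281-1-5p. For miR-281-3p the authors' deposited table gave -0.95 ± 0.65 at Pe day 3 and -0.65 ± 0.63 at Pe day 0.

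Every Pe day 3 library lay above every mock library in the sum of the muscle list, 267 to 382 RPM against 76.3 to 110 RPM, and the part of this in the Pe day 3 difference was not tested. The 5p sum averaged 734 scaled RPM at Pe day 0, where the muscle list overlapped mock, and 716 at Pe day 3. These values are given as a description only. Without the library that held ovary miR-989, Pe day 0 replicate 3, the Pe day 0 differences were -1.40 for miR-281-2-5p and -1.18 for miR-281-1-5p. Leaving out a library also changes the TMM factors, and the part of the ovary list in these differences was not tested.

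**Figure D3:**
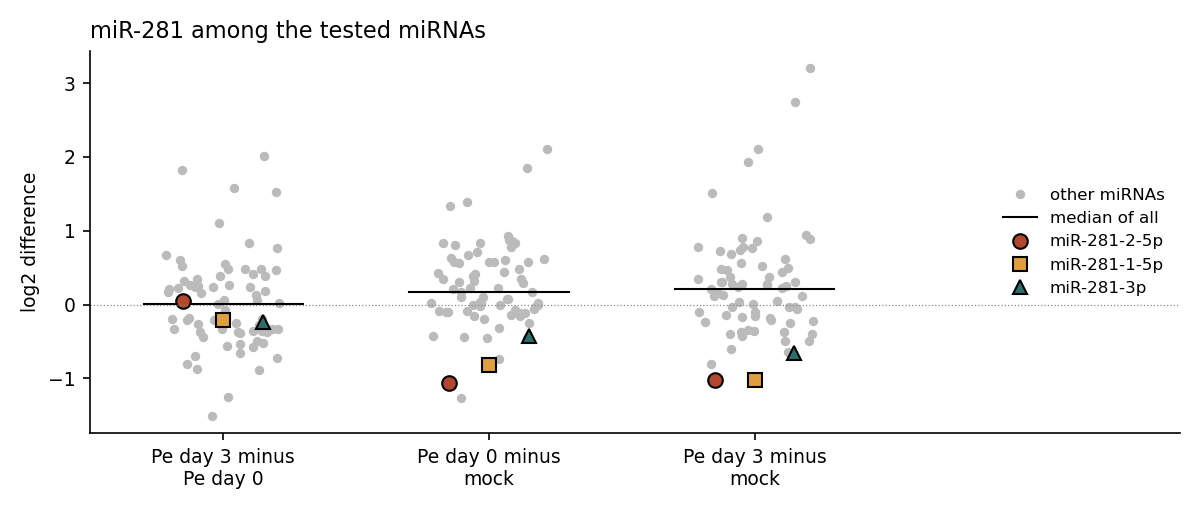
The log2 difference (y axis) of each of the 73 tested miRNAs in 3 contrasts, with the miR-281 entries as large symbols, other miRNAs as grey points and the median of all as a line. The 5p entries lie at -0.21 and 0.05 in Pe day 3 minus Pe day 0, where the median is 0.01, and among the 3 lowest values in each contrast with mock.

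The copies differed widely in level. miR-281-2-5p exceeded miR-281-1-5p in 9 of 9 libraries, by 8.87-fold to 14.5-fold. The mean log2 ratio was 3.51 ± 0.24 (SD, n = 9), or 11.4-fold (p = 0.0039, exact two-sided sign-flip permutation test over libraries, the smallest p it can give). Library scaling cancels in this ratio, and neither the ratio nor the share below was used to choose the entries. How reads were divided between the near-identical copies was not given in the sources used here, and the part of read assignment in the ratio was not tested.

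miR-281-1-5p made up 7.97%, 6.45% and 8.22% of the 5p reads in the Pe day 3 libraries, 8.68%, 8.59% and 9.43% in the Pe day 0 libraries and 6.85%, 6.83% and 10.1% in the mock libraries. The mock libraries spanned nearly the whole range. The mean share was 7.55% ± 0.96 at Pe day 3 and 8.90% ± 0.46 at Pe day 0 (SD, n = 3 each), a difference of -1.35 percentage points. Leaving out single libraries gave differences from -1.69 to -0.81 percentage points. The difference was -0.81 without Pe day 3 replicate 2 and -1.09 without Pe day 0 replicate 3, the library that held ovary miR-989. The Pe groups did not overlap, but 3 libraries against 3 cannot go below p = 0.1 in the exact two-sided permutation test, and that was the value. In the same permutation test p was 0.2 when any single Pe day 0 library was left out. Pooled over the series the share was 8.19%, and the 95% Wilson interval of each of the 9 libraries held that value. The pooled share comes from these same libraries, so this does not show that the share is constant. The intervals ran from 7.88% to 11.3% in the deepest library, Pe day 0 replicate 3, and from 4.87% to 14.7% in Pe day 0 replicate 2, which had 128 reads of both copies. Intervals cover counting error only, since copies made by PCR are not independent molecules.

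The levels of the copies moved together. Over the 9 libraries their log2 levels had a Pearson r of 0.93 and a Spearman rho of 0.95, and r was 0.90 without the 2 libraries farthest from the median of miR-281-1-5p. With group means removed, r was 0.83. The copies come from the same libraries and share the scaling factor, so these values describe the libraries only.

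Other pairs of near-identical miRNAs showed a range of minor shares. miR-276b-3p made up 0% to 0.470% of its pair with miR-276a-3p and was listed at 0 in 5 of 9 libraries. miR-31b-5p made up 0% to 0.206% of its pair with miR-31a-5p in 8 libraries, 4 of them at 0. It made up 2.22% in Pe day 0 replicate 3, the library that held ovary miR-989. In the K box family, the entry for miR-2a-3p with miR-2c-3p made up 11.7% to 16.6% of its pair with miR-2b-3p. In all 9 libraries the miR-281 share, 6.45% to 10.1%, lay between those of the first pairs and that of the miR-2 pair. The smallest listed value was 2 reads, so an entry at 0 may have had 1 read.

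The 5p arm was the dominant arm of miR-281. The 5p sum exceeded miR-281-3p in 9 of 9 libraries, with a mean log2 ratio of 5.27 ± 0.53 (SD, n = 9), or 38.7-fold (p = 0.0039, exact two-sided sign-flip permutation test, the smallest p it can give). miR-281-3p made up 2.56% ± 0.86 of all miR-281 reads at Pe day 3, 3.12% ± 0.56 at Pe day 0 and 2.28% ± 1.05 in mock (SD, n = 3 each). Pe day 3 and Pe day 0 differed by -0.56 percentage points (p = 0.4, exact two-sided permutation test, smallest possible p 0.1). In scaled RPM miR-281-2-5p was highest in mock replicate 1, but before scaling mock replicate 2 was higher (1465 against 1327 RPM). Mock replicate 1 had the lowest 3p share, 1.18% (95% Wilson interval 0.674% to 2.05%). It was the only library of 9 whose interval did not hold the pooled share of 2.41%. The log2 levels of the 3p entry and the 5p sum had r = 0.59 and rho = 0.63 over 9 libraries. That r was 0.86 without the 2 libraries farthest from the median of the 5p sum and 0.24 with group means removed.

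**Figure D4:**
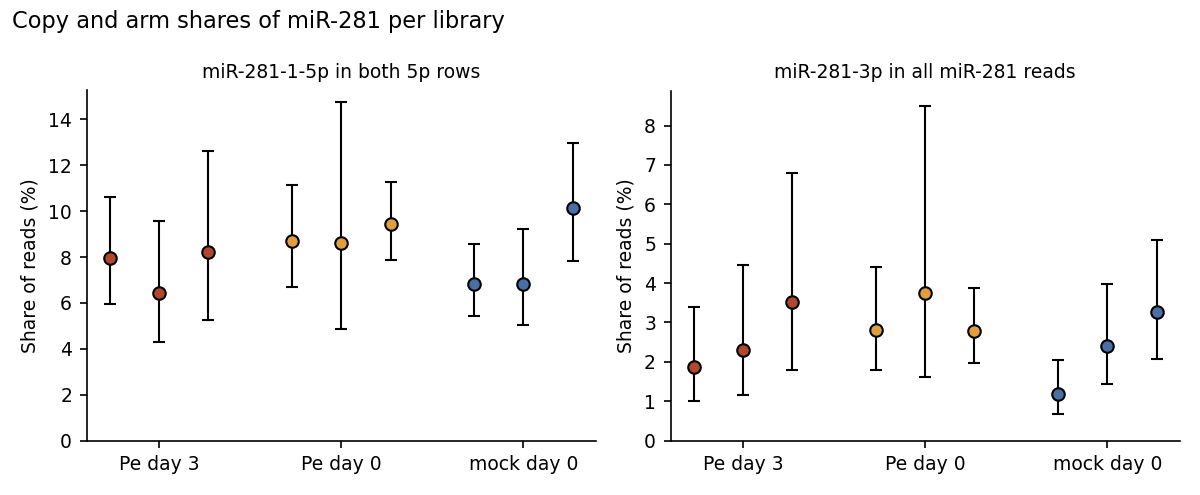
Share of reads in percent (y axes from 0) of miR-281-1-5p among both 5p entries (left) and of miR-281-3p among all miR-281 reads (right). Each point is a library and bars are 95% Wilson intervals, which cover counting error only. The copy shares lie between 6.45% and 10.1%, and the 3p shares between 1.18% and 3.76%.

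The miRNAs most like the 5p sum over the 9 libraries were sought among the 70 other tested miRNAs by Pearson r of log2 levels, as a description. miR-8-3p, of the miR-200 family and known for its part in fly growth control, came first, with r = 0.70 and rho = 0.57. It averaged 4405 ± 640 scaled RPM at Pe day 3, 4180 ± 71.4 at Pe day 0 and 4976 ± 600 in mock (SD, n = 3 each). miR-375-5p (r = 0.57), miR-33-5p (0.54), miR-958-5p (0.53) and miR-316-3p (0.43) followed, with rho of 0.52, 0.58, 0.72 and 0.10. Several of these values turned on 2 libraries. Without mock replicate 1 and Pe day 0 replicate 2, which were farthest from the median of the 5p sum, r was 0.49 for miR-8-3p, -0.07 for miR-375-5p, 0.08 for miR-33-5p and -0.03 for miR-316-3p. For miR-958-5p it was 0.78. miR-958-5p averaged 1756 ± 241 scaled RPM at Pe day 3, 2331 ± 626 at Pe day 0 and 3073 ± 260 in mock. The first 4 kept places 1 to 4 with median-of-ratios factors and took places 2 to 5 with RPM as deposited, where miR-316-3p came first. With median-of-ratios factors r was 0.80 for miR-8-3p, 0.67 for miR-375-5p, 0.66 for miR-33-5p and 0.65 for miR-958-5p. With RPM as deposited it was lower, at 0.42, 0.47, 0.46 and 0.38 in that order.

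With TMM factors, 22 of 70 miRNAs had an r below -0.5 and 4 had one above 0.5. Here and for the most alike miRNAs, r takes in the difference from mock through which miR-281 was chosen. With TMM factors the median log2 difference from mock over all 73 miRNAs was above 0, at 0.21 for Pe day 3 and 0.17 for Pe day 0. The counts therefore support nothing about miR-281, and r with group means removed was not computed for these miRNAs. With these factors miR-34-3p, miR-275-3p and miR-1012-3p were the most opposite, each at r = -0.85, with rho of -0.78, -0.90 and -0.67. miR-275-3p stood at r = -0.90 without the 2 libraries named above, miR-34-3p at -0.56 and miR-1012-3p at -0.66. miR-275-3p, whose hairpin neighbours that of miR-305, averaged 395 ± 70.2 scaled RPM at Pe day 3, 331 ± 53.9 at Pe day 0 and 209 ± 6.68 in mock (SD, n = 3 each). All correlated levels share the scaling factor of their library. With RPM as deposited the 3 values were weaker, at -0.58, -0.51 and -0.57. Counted from the highest r, they then took places 64, 61 and 63 of 70, so other miRNAs were more opposite. With median-of-ratios factors they took places 69, 67 and 70.

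**Figure D5:**
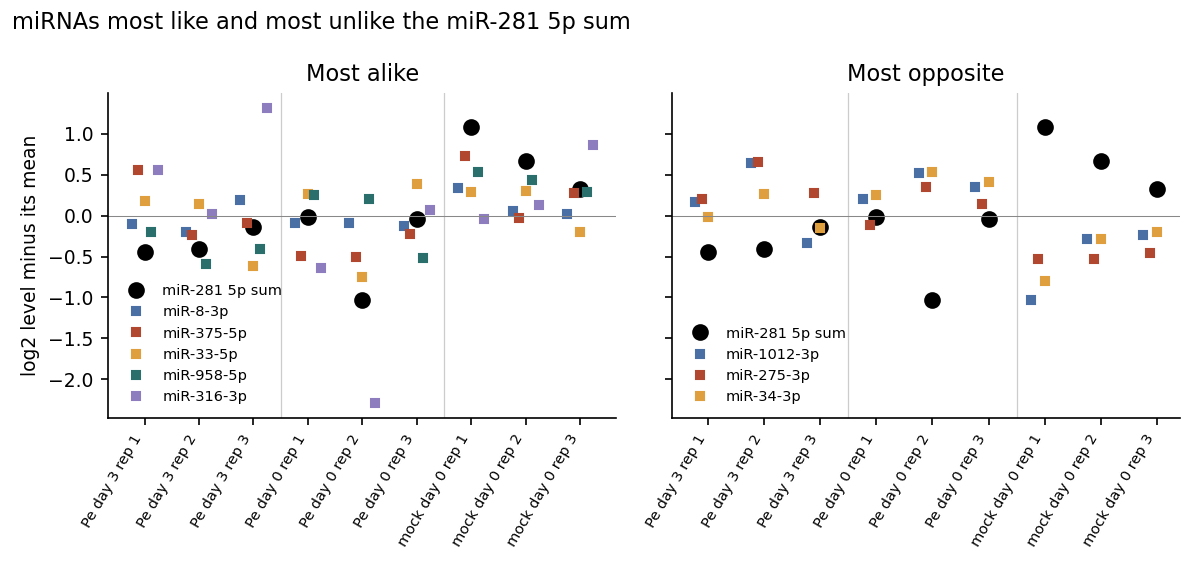
The log2 level of each miRNA minus its mean over the 9 libraries (y axis), by library (x axis), for the 5p sum of miR-281 (black circles) with the 5 most alike miRNAs (left) and the 3 most opposite ones (right). The 5p sum is highest in mock replicate 1 and lowest in Pe day 0 replicate 2, and each of the 3 opposite miRNAs averages lowest in mock.

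The other miRNAs with an intronic hairpin were set beside miR-281. By the annotation, 170 entries come from hairpins in introns of protein-coding genes on the same strand, and 24 of them were tested, the 3 of miR-281 among them. By mean level miR-281-2-5p took place 3 of these 24 and miR-281-1-5p place 12. Of the 21 others, 0 passed limma's threshold in Pe day 3 against Pe day 0, where 2.74% of all miRNAs did, and 0 were called by limma voom. At an unadjusted p under 0.05 there were 4 of the 21 and 13 of all 73. Their median log2 difference was -0.19, against 0.01 over all 73. In Pe day 3 against mock 1 of the 21 was called, where 17.8% of all miRNAs were, and the median was 0.25, against 0.21 over all. In Pe day 0 against mock 0 of the 21 were called by limma and 0 by limma voom, where limma called 4.11% of all miRNAs. At an unadjusted p under 0.05 there were 4 of the 21 and 20 of all 73. The median was 0.32 there, against 0.17 over all. The call was miR-12-5p, hosted with miR-283 by the Golgi gene Gmap, which rose in Pe day 3 against mock by a log2 difference of 0.78 ± 0.23 (SE, limma adjusted p = 0.016).

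The 8 most abundant of the 21 include miR-12-5p. Against mock, miR-11-3p of E2f1, a cell cycle transcription factor gene, had log2 differences of 0.11 ± 0.24 at Pe day 3 and -0.06 ± 0.24 at Pe day 0 (SE). Its other arm, miR-11-5p, stood at -0.49 ± 0.24 at Pe day 3 and 0.08 ± 0.24 at Pe day 0. miR-283-5p of Gmap stood at 0.23 ± 0.24 at Pe day 3 and 0.015 ± 0.24 at Pe day 0. The values of miR-11-3p, miR-11-5p and miR-283-5p thus lie between -0.49 and 0.23. miR-33-5p, hosted by the lipid regulator gene SREBP, stood at -0.23 ± 0.30 at Pe day 3 and -0.16 ± 0.30 at Pe day 0. miR-995-3p of Cdk2, a cell cycle kinase gene, stood at -0.03 ± 0.30 at Pe day 3 and 0.62 ± 0.30 at Pe day 0. The mirtron miR-1012-3p of Lerp, a lysosomal sorting receptor gene, stood at 0.68 ± 0.30 at Pe day 3 and 0.88 ± 0.30 at Pe day 0. miR-9c-5p of grp, the gene of a cell cycle checkpoint kinase, stood at -0.14 ± 0.29 at Pe day 3 and 0.58 ± 0.29 at Pe day 0. No limma adjusted p of these 7 miRNAs was under the threshold in either contrast, and the difference between miR-281 and any of them was not tested.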

How the data were processed

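Small RNA libraries of 9 midgut samples were analysed. The deposited expression table gives RPM per miRNA, and its name mentions miRge. No source used here gives the aligner, the miRNA release or the genome build of the authors. RPM were multiples of a step in each library (within 1.27e-06 of whole reads), which gave the read numbers behind depths and shares, but too few low values met the rule for a count test. Of the alternatives, limma voom was run on these recovered reads, and its values carry that limit. A second deposited table, by the authors, holds a mean signal, log2 fold changes with SEs, a Wald score and p-values. Its columns carry the names that DESeq2 gives, per the file headers, and the submitters' processing notes list version 1.22.0 of that tool for the authors. The contrasts, which no header names, were matched by value to Pe day 0 and Pe day 3 over mock, to within 0.033 and 0.045 in log2 over 47 miRNAs with a mean above 50.

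RPM were divided by TMM factors (trims of 30% for log ratios and 5% for abundances), since a few miRNAs take most reads and move the RPM of the rest. miRNAs with at least 20.1 RPM (10 reads at the median depth of 497997) in 3 libraries were kept. The log2 of scaled RPM plus 4.02, the worth of 2 reads at that depth, was tested, which understates changes of scarce miRNAs. A limma 3.58.1 model (R 4.3.3, trended and robust) took in the 3 groups together, without a replicate block, with p-values adjusted by Benjamini-Hochberg over all miRNAs kept. The model was also run on simulated data, with planted changes larger than the miR-281 differences. That run does not show how well changes of their size are found. Single values were tested by exact permutation over libraries.

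Named were all miR-281 entries, the 5 miRNAs with the highest and the 3 with the lowest Pearson r to the 5p sum, 3 near-identical pairs, and the 8 most abundant intronic miRNAs. Members and lists were chosen with earlier results of these data known. Alternatives were other scalings, pseudocounts and filters, only the groups compared, the replicate number as a block, limma voom, and leaving out each library. As a check of pairing, same-numbered libraries deviated together in Pe day 0 and mock (correlations of 0.24, 0.43 and 0.36), but not in all pairs with Pe day 3 (-0.26 to 0.22). The numbers come from the labels, which do not say that they mark a shared batch.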

Additional observations from a re-analysis of the deposited data

Results flagged for a closer look

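Among the marker lists, the muscle list was highest in Pe day 3 replicate 3, at 382 RPM, above the 76.3 to 110 RPM of the mock libraries. The ovary list stood at 77.5 RPM in Pe day 0 replicate 3 and at 0 in the mock libraries. Neither list holds a miR-281 entry, and their values stand beside the miR-281 differences in the report.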

How the results depend on the processing

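The differences of miR-281 from mock kept their direction under every alternative run. The Pe day 3 difference of miR-281-1-5p was -0.76 with RPM as deposited, and -1.29 to -1.01 when a library was left out. With RPM as deposited the Pe day 3 difference was also smaller for miR-281-2-5p, at -0.74 against -1.02 with TMM factors. For the 5p sum it was -0.74 against -1.02. In Pe day 3 minus Pe day 0 no miR-281 entry passed the threshold in any alternative, with limma adjusted p from 0.278 up. There miR-281-2-5p turned to -0.036 with totals without the 5 most abundant miRNAs and ranged from -0.28 to 0.22 without a library. The 5p sum turned to -0.057 with those totals and to -0.0025 with limma voom, and ranged from -0.31 to 0.20 without a library. It was below 0 without mock replicate 1 or 3, Pe day 0 replicate 2 or Pe day 3 replicate 3. The filter of 100 RPM left miR-281-1-5p and miR-281-3p untested. The copy and arm ratios kept their direction, with exact permutation p of 0.0039 to 0.0078. Counts of called miRNAs moved more. In Pe day 3 minus Pe day 0 limma called 2, but 4 with RPM as deposited, 4 with totals without the 5 most abundant, 4 without a filter and 2 to 7 without a library (7 without Pe day 3 replicate 1, and 4 without Pe day 0 replicate 2 or 3). In Pe day 0 minus mock it called 3, but 0 with RPM as deposited (16 at an unadjusted p under 0.05), 0 without a filter (22 unadjusted), 7 with a filter of 100 RPM and 0 to 8 without a library. The 0 counts of limma came without mock replicate 1 or 3, Pe day 0 replicate 2, or Pe day 3 replicate 2 or 3 (9 to 21 at an unadjusted p under 0.05), and the 8 without Pe day 3 replicate 1. In Pe day 3 minus mock the 13 calls were 9 higher and 4 lower. RPM as deposited gave 10 higher and 0 lower, median-of-ratios factors gave 5 of each, and 4 to 15 were called without a library (4 without mock replicate 1 or Pe day 3 replicate 2, 6 without mock replicate 3). The cause was not tested. With the replicate number as a block, limma called 6 in Pe day 3 minus Pe day 0, 1 in Pe day 0 minus mock and 14 in Pe day 3 minus mock, and no miR-281 entry passed in Pe day 3 minus Pe day 0. Of the 9 libraries, 7 correlated best with their own number, a hint from the data only. Depth limits miR-281-3p, with 5 to 33 reads per library.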
